A study of Mus musculus with 8 samples.

Results

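The Slc25 genes encode mitochondrial carriers, the family of membrane proteins that moves metabolites, nucleotides and cofactors across the inner mitochondrial membrane. They were described here in Paneth cells and in cells derived from them in the mouse intestine. The members were all symbols of the expression table that begin with Slc25a followed by a number, which gave 47 of 24013 symbols. Most carriers exchange one substrate for another, so they couple the matrix to the cytosol: ADP and phosphate enter and ATP leaves, acylcarnitines enter for fatty acid oxidation, and citrate, malate, aspartate and ornithine pass between pathways of the 2 compartments. Paneth cells are secretory cells of the crypt base that make antimicrobial peptides, and absorptive enterocytes of the villus are known for fatty acid oxidation and for making citrulline.

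RNA was sequenced from 3 groups of sorted cells. Irradiated tdT+CD24- cells (3 libraries) are called irradiated CD24- here, irradiated tdT+CD24+ cells (3 libraries) are called irradiated CD24+, and tdT+CD24+ cells of mice that were not irradiated (2 libraries) are called non-irradiated CD24+. All mice were Lyz1CreER; R26R-tdT animals on a mixed C57/BL6 and 129 background, 8 to 14 weeks old, and all had received 1 dose of tamoxifen of 10 mg per mouse. Cre was driven by Lyz1, a Paneth cell gene, so that the red reporter stays on in cells that expressed Lyz1 at the time of tamoxifen and in their descendants. Cells were collected 5 days after radiation in the irradiated groups, and gated as viable, CD45-negative and EpCAM-positive before the CD24 gate. The labels name the CD24+ gate Paneth cells and the CD24- gate derivative cells. The CD24- gate of mice without irradiation was not analysed here, so irradiation is compared only within the CD24+ gate, and the gates only after irradiation. The labels do not say whether libraries came from separate mice, so the p-values measure the spread between these libraries, which may be technical.

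Paneth and enterocyte markers differed between the irradiated gates. All 16 Paneth markers fell and all 15 enterocyte markers rose in irradiated CD24- cells against irradiated CD24+ cells. Among all genes tested, 7.27% were called lower and 48.6% higher. A list of 41 Paneth secretory products held 2.21% to 14.3% of summed FPKM in irradiated CD24- libraries, 82.3% to 85.8% in irradiated CD24+ libraries, and 92.3% and 85.03% in non-irradiated CD24+ replicates 1 and 2. Because FPKM (a fragment count divided by transcript length and by the library's mapped total) is a share of each library, every other gene is diluted where these products are abundant. For the members, each comparison is therefore given under 3 scalings: the deposited FPKM, FPKM divided by a median-of-ratios factor, and FPKM rescaled to the total outside those 41 products. Across the 11190 genes tested, the median gene had log2 fold changes of 0.51, -0.02 and -0.49 on them for irradiated CD24- over irradiated CD24+. In bulk RNA, fewer cells of a type and less RNA per cell cannot be told apart.

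A pair of carriers made up most of the family's message. Of the 47 members, 37 passed the filter of at least 1 FPKM in at least 2 libraries, and 30 were at 1 FPKM or more in all 8. The tested members ran from 0.969 to 861 FPKM by their mean over libraries, on a scale that takes account of transcript length. Slc25a5, the ADP/ATP carrier ANT2, held 50.7% to 54.0% of the family's summed FPKM in irradiated CD24- libraries, 42.2% to 45.3% in irradiated CD24+ libraries, and 37.5% and 46.0% in the non-irradiated libraries. Slc25a3, the phosphate carrier, held 17.7% to 19.0% in irradiated CD24- libraries, 19.3% in each irradiated CD24+ library, and 18.4% and 17.5% in the non-irradiated libraries. The summed level of the family was 3018, 3441 and 3567 FPKM in irradiated CD24- libraries, 740, 865 and 948 FPKM in irradiated CD24+ libraries, and 432 and 886 FPKM in non-irradiated CD24+ libraries. As a share of FPKM outside the Paneth products it was 0.605% to 0.675% in irradiated CD24- libraries, 0.364% to 0.397% in irradiated CD24+ libraries, and 0.345% and 0.412% in non-irradiated CD24+ libraries.

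The order of the members differed most between gates at Slc25a45, whose rank by mean FPKM among the 47 was 4 in irradiated CD24- cells, 22 for irradiated CD24+ cells and 16 for non-irradiated CD24+ cells. Slc25a5, Slc25a3 and Slc25a39 ranked 1, 2 and 3 in all 3 groups. The 10 members below the filter were Slc25a2, Slc25a18, Slc25a21, Slc25a27, Slc25a31, Slc25a41, Slc25a43, Slc25a48, Slc25a53 and Slc25a54, with no value above 0.534 FPKM. Slc25a41 and Slc25a54 are listed at 0 in every library. Among them Slc25a31 is the germ cell ADP/ATP carrier ANT4 and Slc25a18 is a glutamate carrier, the relative of Slc25a22.

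**Figure D1:**
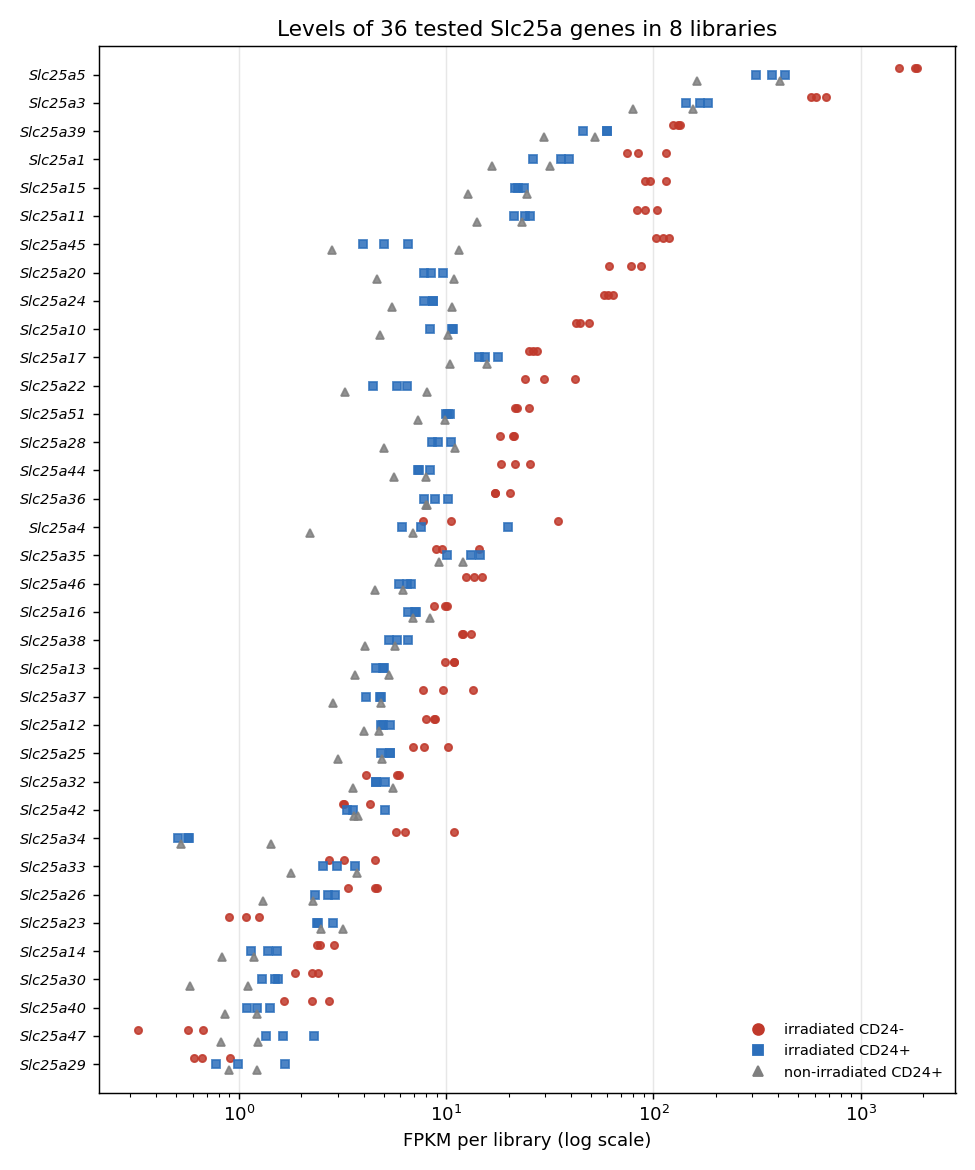
FPKM (log axis) of 36 of the tested members in each of 8 libraries, ordered by mean level, with irradiated CD24- as circles, irradiated CD24+ as squares and non-irradiated CD24+ as triangles. Slc25a5 and Slc25a3 stand above all others in every library, and the widest distances between circles and squares are at Slc25a45, Slc25a34, Slc25a20 and Slc25a24, while the circles of Slc25a23 and Slc25a47 lie below their squares.

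Between the irradiated gates, 26 of the 37 tested members passed the test as higher and 2 as lower for irradiated CD24- cells on deposited FPKM (limma, adjusted p under 0.05 over all genes tested). Among all genes tested, 48.6% were called higher and 7.27% lower, so calls of a rise were frequent in general. With median-of-ratios scaling the members' counts were 19 higher and 6 lower, against 29.5% and 28.3% of all genes. With scaling outside the Paneth products they were 10 higher and 14 lower, against 14.6% and 55.5% of all genes. Under all 3 scalings at once, 10 members were called higher and 2 lower, against 14.6% and 7.24% of all genes. Each scaling divides a library by 1 factor, so the 3 are not separate checks. All 1629 genes called higher outside the Paneth products were higher under all 3. Of 813 genes called lower on deposited FPKM, 810 were lower under all 3. In deposited FPKM, 29 members were higher and 2 lower with no overlap between these gates, against 59.1% and 9.31% of all genes. After median-of-ratios scaling 19 were higher and 8 lower with no overlap, against 33.8% and 34.2%. The members' median log2 fold change was 0.96 on deposited FPKM, 0.38 after median-of-ratios scaling and -0.14 after scaling outside the Paneth products.

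The 10 members that rose under every scaling were Slc25a45, Slc25a20, Slc25a24, Slc25a34, Slc25a22, Slc25a5, Slc25a15, Slc25a10, Slc25a11 and Slc25a3, and the 2 that fell were Slc25a47 and Slc25a23. The remaining 16 members called higher on deposited FPKM lost the call under at least 1 other scaling. Slc25a29, Slc25a32, Slc25a35 and Slc25a42 were not called on deposited FPKM and were called lower under both other scalings. Slc25a34 passed the filter only with the irradiated CD24- libraries, where it is high, and Slc25a29 and Slc25a47 only through CD24+ libraries, so the filter favoured a difference in these 3.

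**Figure D2:**
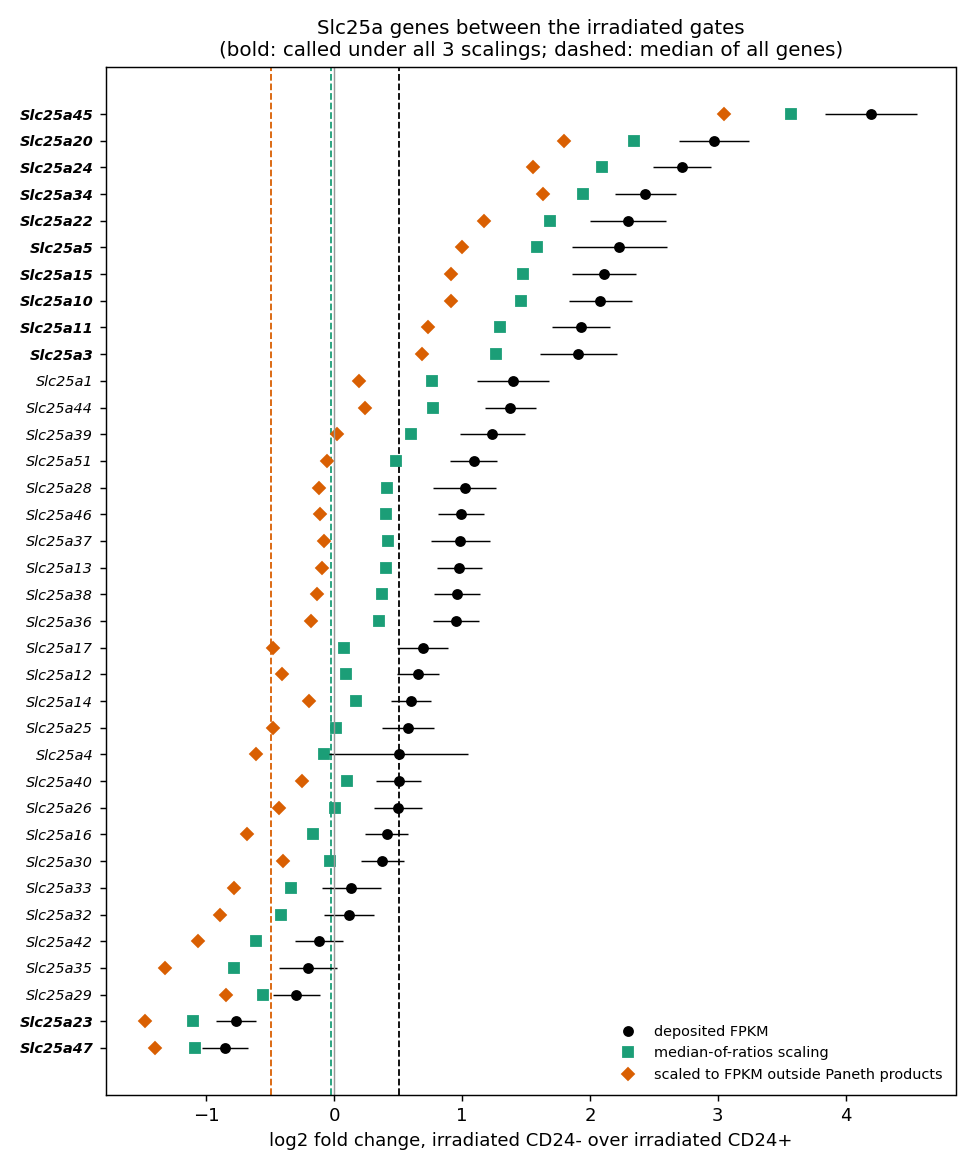
Log2 fold change of irradiated CD24- over irradiated CD24+ for 36 of the tested members under 3 scalings (black circles with standard error: deposited FPKM; green squares: median-of-ratios; orange diamonds: outside Paneth products), on log2(FPKM + 1). Dashed lines are the medians of all genes tested at 0.51, -0.02 and -0.49, and names in bold are the 12 members called under all 3 scalings, with all 3 symbols on the same side of 0.

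The 12 members called under all 3 scalings were looked up in RefSeq promoters on GRCm38.p6. All 12 had an entry, and 36 of the 47 members had one. The 250 bases before the start were searched on both strands for 6 motifs of regulators of mitochondrial and enterocyte genes: AGGTCA (nuclear receptor half-site), TCAAGGTCA (the ERR site, which contains AGGTCA), CAAAGTCCA (HNF4), CCGGAAG (ETS/GABP), GCGCATGCG (NRF1) and AAGATGGCG (YY1). AGGTCA was in 4 of the 36 members (11.1%) and in 15.8% of 27025 genes, and CCGGAAG was in 6 members (16.7%) and in 7.83% of genes. Each of the other motifs was in 0 of the 36 members, and in 0.422% (TCAAGGTCA), 0.451% (CAAAGTCCA), 1.64% (GCGCATGCG) and 0.71% (AAGATGGCG) of genes. The median number of CG dinucleotides in these windows was 13 in members and 6 in all genes. The 5 windows below are those of the 12 members that hold a motif, shown so that the differing base composition of the carriers that moved can be read. Capitals mark AGGTCA or its reverse complement TGACCT in the first 3, and CCGGAAG in the other pair. A match is a string of letters in this window and was not tested for binding.
Slc25a45 (chr19:5877572-5877821, plus strand): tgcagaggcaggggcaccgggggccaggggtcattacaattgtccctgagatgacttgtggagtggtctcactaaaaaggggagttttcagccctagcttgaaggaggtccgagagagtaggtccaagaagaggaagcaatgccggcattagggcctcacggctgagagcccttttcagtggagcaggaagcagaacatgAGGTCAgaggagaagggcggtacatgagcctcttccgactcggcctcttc
Slc25a34 (chr4:141623835-141624084, minus strand): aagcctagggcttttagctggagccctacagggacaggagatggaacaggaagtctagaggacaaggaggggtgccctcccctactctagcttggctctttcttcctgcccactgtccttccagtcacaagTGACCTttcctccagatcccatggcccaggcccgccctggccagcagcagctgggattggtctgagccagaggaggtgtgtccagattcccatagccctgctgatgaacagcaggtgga
Slc25a47 (chr12:108850879-108851128, plus strand): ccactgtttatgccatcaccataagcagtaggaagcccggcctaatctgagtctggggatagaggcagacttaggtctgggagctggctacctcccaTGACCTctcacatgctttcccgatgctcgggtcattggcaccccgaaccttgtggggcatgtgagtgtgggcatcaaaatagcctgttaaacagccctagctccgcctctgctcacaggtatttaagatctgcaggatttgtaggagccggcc
Slc25a20 (chr9:108661886-108662135, plus strand): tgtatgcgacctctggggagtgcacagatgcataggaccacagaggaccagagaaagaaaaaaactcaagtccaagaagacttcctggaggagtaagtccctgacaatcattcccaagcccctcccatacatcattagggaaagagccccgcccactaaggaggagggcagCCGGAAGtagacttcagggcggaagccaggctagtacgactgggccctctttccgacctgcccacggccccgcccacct
Slc25a3 (chr10:91123968-91124217, minus strand): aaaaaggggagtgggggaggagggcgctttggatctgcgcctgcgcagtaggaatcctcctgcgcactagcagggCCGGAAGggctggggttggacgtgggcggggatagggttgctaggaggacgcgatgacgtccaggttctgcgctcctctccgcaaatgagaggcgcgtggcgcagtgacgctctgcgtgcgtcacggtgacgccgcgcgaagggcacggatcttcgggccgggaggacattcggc

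The carnitine carriers showed both the widest rise and a fall. Slc25a20, the carnitine-acylcarnitine carrier that brings long-chain acyl groups into the matrix, stood at 61.2, 77.6 and 87.1 FPKM in irradiated CD24- replicates 1, 2 and 3. It stood at 9.71, 7.83 and 8.43 FPKM in irradiated CD24+ cells and at 4.66 and 10.9 FPKM in non-irradiated CD24+ cells. All irradiated CD24- libraries lay above all CD24+ libraries, and Slc25a20 was 8.69-fold higher in irradiated CD24- cells than in irradiated CD24+ cells by means (log2 fold change 2.97 ± 0.27 (SE), adjusted p = 1.11e-05).

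Slc25a45, a relative of the carnitine carrier, differed more. It had 103, 119 and 111 FPKM in irradiated CD24- libraries, 6.54, 5.01 and 3.97 FPKM in irradiated CD24+ libraries and 2.803 and 11.6 FPKM in non-irradiated libraries. The ratio of means was 21.4 (log2 fold change 4.20 ± 0.36 (SE), adjusted p = 8.68e-06), and the change in log2 stayed at 3.57 after median-of-ratios scaling and 3.05 outside the Paneth products. Within libraries, the ratio of Slc25a20 to Slc25a45 was 0.596, 0.654 and 0.783 in irradiated CD24- libraries, 1.48, 1.56 and 2.12 in irradiated CD24+ libraries and 1.66 and 0.945 in non-irradiated libraries. Slc25a45 was thus the more abundant of the pair in every irradiated CD24- library, and Slc25a20 in every irradiated CD24+ library. A ratio of 2 genes within a library is the same under any library scaling.

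Slc25a47, another relative of the carnitine carrier that is known from liver, went the other way at a low level. It had 0.572, 0.327 and 0.674 FPKM in irradiated CD24- cells, 1.35, 2.32 and 1.63 FPKM in irradiated CD24+ cells and 0.819 and 1.24 FPKM in non-irradiated CD24+ cells. Every irradiated CD24- library was below every other library (log2 fold change -0.85 ± 0.18 (SE), adjusted p = 0.00207). Slc25a47 passed the filter only through CD24+ libraries, so the filter favoured this result. The gene also hosts a microRNA (Mir345) within an exon in the GENCODE annotation on GRCm38.

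**Figure D3:**
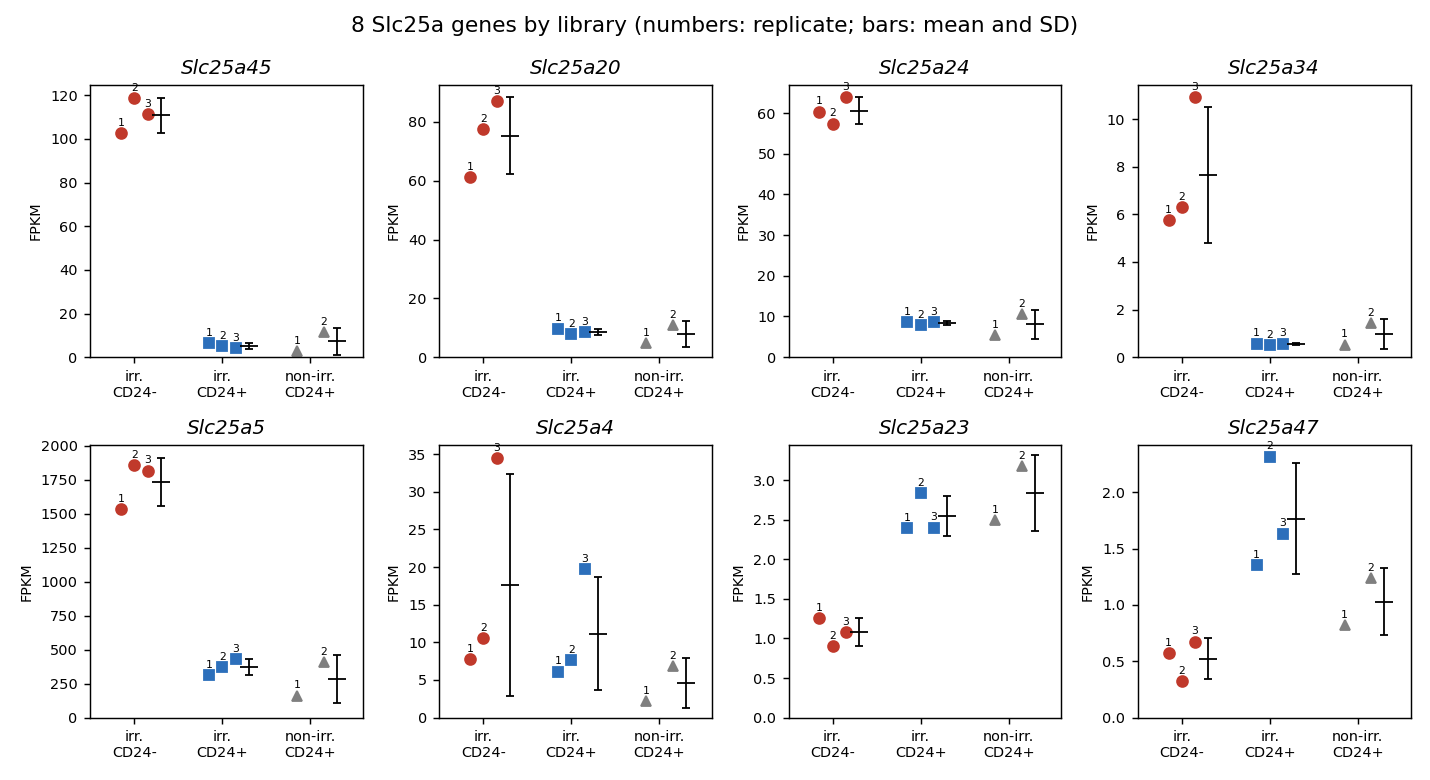
FPKM of 8 members in each library, with irradiated CD24- at the left, irradiated CD24+ in the middle and non-irradiated CD24+ at the right; numbers are replicates and bars give mean and SD (n = 3, 3 and 2), and the scale differs between panels. Slc25a45, Slc25a20, Slc25a24, Slc25a34 and Slc25a5 are higher in every irradiated CD24- library, Slc25a23 and Slc25a47 are lower, and Slc25a4 is highest in replicate 3 of both irradiated groups.

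Among the carriers of ADP, ATP and phosphate, 4 of 6 tested members rose and 1 fell in irradiated CD24- cells on deposited FPKM, where 48.6% and 7.27% of all genes did. The counts were 3 and 1 after median-of-ratios scaling and 3 and 2 outside the Paneth products. Slc25a5 had 1531, 1856 and 1817 FPKM in irradiated CD24- libraries, 312, 371 and 429.8 FPKM in irradiated CD24+ libraries and 162 and 408 FPKM in non-irradiated libraries (log2 fold change 2.23 ± 0.37 (SE), adjusted p = 4.47e-04, irradiated CD24- over irradiated CD24+). Slc25a3, which supplies the phosphate for ATP synthesis, had 572, 608 and 678 FPKM in irradiated CD24- libraries, 143, 167 and 183 FPKM in irradiated CD24+ libraries and 79.7 and 155 FPKM in non-irradiated libraries (log2 fold change 1.91 ± 0.30 (SE), adjusted p = 2.88e-04). The irradiated CD24- values of both carriers lay above all other libraries, and the ratio of Slc25a5 to Slc25a3 was 2.68 to 3.05 in irradiated CD24- libraries, 2.19 to 2.34 in irradiated CD24+ libraries and 2.03 and 2.63 in non-irradiated libraries. Slc25a5 has an annotated pseudogene copy, so its reads may be split with it.

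Slc25a4, the ADP/ATP carrier ANT1 of muscle and heart, did not pass the test (adjusted p = 0.454, limma). It had 7.76, 10.6 and 34.5 FPKM in irradiated CD24- replicates 1, 2 and 3, 6.103, 7.59 and 19.8 FPKM in irradiated CD24+ replicates 1, 2 and 3 and 2.203 and 6.89 FPKM in non-irradiated libraries. Replicate 3 was the highest of both irradiated groups, and the groups overlapped. The summed FPKM of 10 enteroendocrine markers had the same order of replicates within each irradiated group. It was 372, 1171 and 3584 in irradiated CD24- libraries and 251, 776 and 1090 in irradiated CD24+ libraries. In non-irradiated libraries it was nearly level, at 127 and 130, where Slc25a4 was not. Single markers differed from the sum. Cck, Ghrl and Gcg were highest in replicate 2 of irradiated CD24- cells, and Gcg and Pax6 in replicate 2 of irradiated CD24+ cells. The other markers were highest in replicate 3 of each irradiated group. None of the 10 markers was at 0 in any library. The enteroendocrine list was not alone in this order. The summed stroma markers, chiefly Vim, were at 4.04, 11.8 and 43.6 FPKM in irradiated CD24- replicates 1, 2 and 3. They were at 1.91, 6.14 and 10.4 FPKM in irradiated CD24+ replicates and at 0.759 and 1.41 FPKM in non-irradiated libraries. The part of either list in the Slc25a4 values was not tested.

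The ATP-Mg/phosphate carriers, which bind calcium through an added domain and adjust the matrix adenine nucleotide pool, changed in opposite directions. Slc25a24 had 60.3, 57.4 and 63.96 FPKM in irradiated CD24- libraries, 8.66, 7.78 and 8.61 FPKM in irradiated CD24+ libraries and 5.48 and 10.6 FPKM in non-irradiated libraries (log2 fold change 2.72 ± 0.23 (SE), adjusted p = 7.72e-06). Slc25a23 had 1.26, 0.902 and 1.08 FPKM in irradiated CD24- libraries, 2.396, 2.83 and 2.399 FPKM in irradiated CD24+ libraries and 2.49 and 3.18 FPKM in non-irradiated libraries (log2 fold change -0.77 ± 0.16 (SE), adjusted p = 0.00181). Neither member's irradiated CD24- values overlapped with those of any CD24+ library. Within libraries, Slc25a24 exceeded Slc25a23 by 48.1, 63.7 and 59.0 times in irradiated CD24- cells, by 3.61, 2.75 and 3.59 times in irradiated CD24+ cells and by 2.20 and 3.35 times in non-irradiated CD24+ cells. Slc25a25, the next relative, averaged 8.31 ± 1.69 FPKM (SD, n = 3) in irradiated CD24- cells and 5.18 ± 0.294 FPKM (SD, n = 3) in irradiated CD24+ cells, and its call on deposited FPKM (log2 fold change 0.58 ± 0.21 (SE), adjusted p = 0.03196) did not hold after median-of-ratios scaling (0.02 in log2) and turned to lower outside the Paneth products (-0.48). That call on deposited FPKM also ended when irradiated CD24- replicate 1 (0.44) or any 1 irradiated CD24+ library (0.54 to 0.60) was left out.

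**Figure D4:**
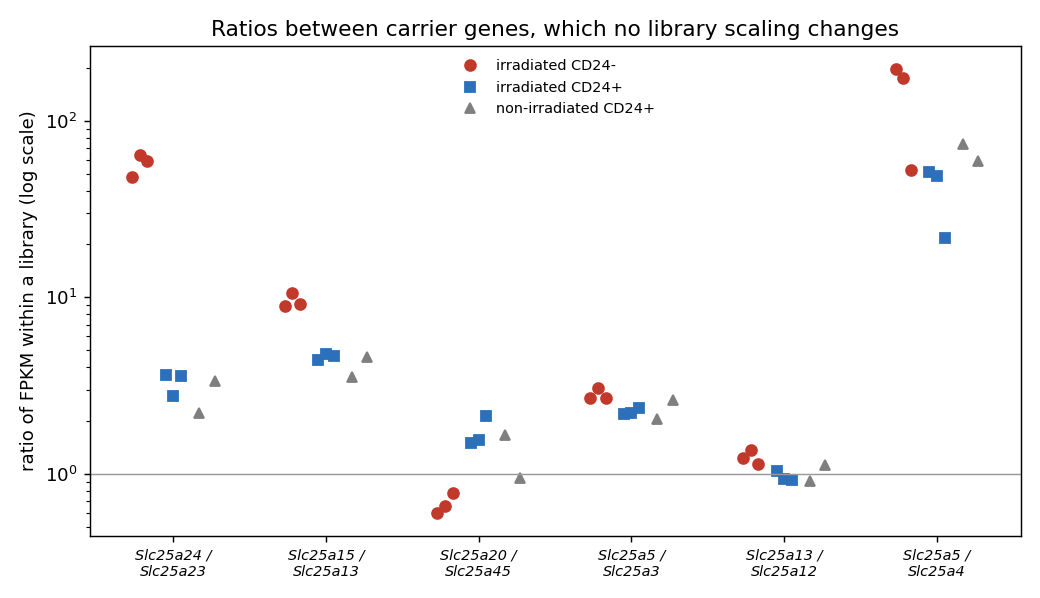
Ratios of FPKM between pairs of carriers within each library (log axis), with irradiated CD24- as circles, irradiated CD24+ as squares and non-irradiated CD24+ as triangles. Slc25a24 over Slc25a23 separates the gates most, at 48.1 to 63.7 against 2.20 to 3.61 in the CD24+ libraries. Slc25a5 over Slc25a4, at 52.7 to 197 in irradiated CD24- libraries, overlaps with the non-irradiated libraries (59.2 to 73.5). It lies just above the irradiated CD24+ libraries (21.7 to 51.1).

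The di- and tricarboxylate carriers, which link the citric acid cycle to the cytosol, all rose on deposited FPKM, 3 of the 3 tested (48.6% of all genes). Slc25a10, the dicarboxylate carrier that exchanges malate or succinate for phosphate, had 42.1, 44.5 and 48.7 FPKM in irradiated CD24- libraries, 8.36, 10.8 and 10.7 FPKM in irradiated CD24+ libraries and 4.79 and 10.2 FPKM in non-irradiated libraries (log2 fold change 2.08 ± 0.25 (SE), adjusted p = 5.01e-05). Slc25a11, the oxoglutarate carrier of the malate-aspartate shuttle, had 83.6, 91.01 and 104 FPKM in irradiated CD24- libraries, 21.3, 24.1 and 25.4 FPKM in irradiated CD24+ libraries and 14.1 and 23.2 FPKM in non-irradiated libraries (log2 fold change 1.93 ± 0.23 (SE), adjusted p = 4.79e-05). The irradiated CD24- values of both were above all CD24+ values. Slc25a1, the citrate carrier that provides citrate for fatty acid synthesis, had 74.1, 84.6 and 114 FPKM in irradiated CD24- libraries, 26.3, 35.99 and 39.1 FPKM in irradiated CD24+ libraries and 16.7 and 31.6 FPKM in non-irradiated libraries (log2 fold change 1.40 ± 0.28 (SE), adjusted p = 0.00154). Its rise was called after median-of-ratios scaling (0.76 in log2) and was not called outside the Paneth products (0.19). The ratio of Slc25a1 to Slc25a11 was 0.887, 0.930 and 1.10 in irradiated CD24- libraries, 1.23, 1.49 and 1.54 in irradiated CD24+ libraries and 1.19 and 1.36 in non-irradiated libraries, so it was lower in every irradiated CD24- library.

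Of the amino acid carriers, 6 of 7 tested members rose on deposited FPKM and 0 fell, against 48.6% and 7.27% of all genes, and 2 of the 6 rose under every scaling. Slc25a15, the ornithine carrier of the urea cycle and of citrulline synthesis, had 96.5, 115 and 90.8 FPKM in irradiated CD24- libraries, 22.2, 23.9 and 21.4 FPKM in irradiated CD24+ libraries and 12.8 and 24.5 FPKM in non-irradiated libraries (log2 fold change 2.11 ± 0.25 (SE), adjusted p = 4.59e-05). Slc25a22, a glutamate carrier, had 29.8, 23.9 and 41.98 FPKM in irradiated CD24- libraries, 4.45, 6.48 and 5.82 FPKM in irradiated CD24+ libraries and 3.25 and 8.09 FPKM in non-irradiated libraries (log2 fold change 2.30 ± 0.30 (SE), adjusted p = 8.55e-05). For both, the irradiated CD24- libraries stood above every CD24+ library.

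The aspartate-glutamate carriers of the malate-aspartate shuttle moved less. Slc25a13 (citrin) had 10.9, 10.9 and 9.93 FPKM in irradiated CD24- libraries, 5.04, 4.98 and 4.59 FPKM in irradiated CD24+ libraries and 3.64 and 5.33 FPKM in non-irradiated libraries (log2 fold change 0.98 ± 0.18 (SE), adjusted p = 7.72e-04). Slc25a12 (aralar) had 8.89, 7.96 and 8.78 FPKM in irradiated CD24- libraries, 4.86, 5.35 and 4.99 FPKM in irradiated CD24+ libraries and 4.003 and 4.77 FPKM in non-irradiated libraries (log2 fold change 0.65 ± 0.16 (SE), adjusted p = 0.00549). The groups did not overlap in FPKM, but outside the Paneth products the log2 changes were -0.10 and -0.41, and Slc25a12 was called lower there (adjusted p = 0.0392, limma) and was not called after median-of-ratios scaling (0.09). Set against Slc25a13 within the same library, Slc25a15 was 8.87, 10.5 and 9.15 times as abundant in irradiated CD24- cells, 4.40, 4.79 and 4.65 times in irradiated CD24+ cells and 3.51 and 4.598 times in non-irradiated CD24+ cells. Slc25a38, the glycine carrier that feeds heme synthesis, had 11.95, 13.1 and 11.997 FPKM in irradiated CD24- libraries, 5.31, 5.78 and 6.57 FPKM in irradiated CD24+ libraries and 4.04 and 5.69 FPKM in non-irradiated libraries (log2 fold change 0.96 ± 0.18 (SE), adjusted p = 9.68e-04), with -0.14 in log2 outside the Paneth products. Slc25a44, needed for mitochondrial use of branched-chain amino acids, averaged 21.7 ± 3.53 FPKM (SD, n = 3) in irradiated CD24- cells and 7.68 ± 0.572 FPKM (SD, n = 3) in irradiated CD24+ cells (log2 fold change 1.38 ± 0.20 (SE), adjusted p = 1.76e-04). Slc25a29, a basic amino acid carrier, averaged 0.728 ± 0.1601 FPKM (SD, n = 3) in irradiated CD24- cells and 1.15 ± 0.471 FPKM (SD, n = 3) in irradiated CD24+ cells and did not pass the test on deposited FPKM (adjusted p = 0.1905, limma).

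Of 9 tested carriers of nucleotides and cofactors, 4 rose and 0 fell on deposited FPKM (limma), against 48.6% and 7.27% of all genes, and their median log2 fold change was 0.41. After median-of-ratios scaling 1 was higher and 2 were lower, at a median of -0.16. Outside the Paneth products 0 were higher and 7 lower, at a median of -0.60, where 55.5% of all genes were lower. Slc25a32, the carrier assigned to folate or FAD, had 5.83, 5.93 and 4.0996 FPKM in irradiated CD24- libraries, 4.61, 5.08 and 4.57 FPKM in irradiated CD24+ libraries and 3.57 and 5.52 FPKM in non-irradiated libraries. Slc25a33, a pyrimidine nucleotide carrier, had 2.71, 3.22 and 4.53 FPKM in irradiated CD24- libraries, 2.56, 2.97 and 3.64 FPKM in irradiated CD24+ libraries and 1.78 and 3.72 FPKM in non-irradiated libraries. Neither passed the test on deposited FPKM (adjusted p 0.642 for each, limma), and outside the Paneth products both were called lower in irradiated CD24- cells, at log2 changes of -0.89 and -0.79. In deposited FPKM the irradiated gates overlapped for both.

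Slc25a26, the S-adenosylmethionine carrier, had 4.53, 4.64 and 3.36 FPKM in irradiated CD24- libraries, 2.33, 2.92 and 2.696 FPKM in irradiated CD24+ libraries and 1.31 and 2.27 FPKM in non-irradiated libraries. Its adjusted p of 0.0434 (limma, 0.50 in log2) lay just inside the threshold, and it was at 0.00 in log2 after median-of-ratios scaling. Leaving out any 1 of the 6 irradiated libraries other than irradiated CD24- replicate 3 ended this call, with log2 changes of 0.43 to 0.55. Slc25a51, the NAD carrier, averaged 22.9 ± 1.95 FPKM (SD, n = 3) in irradiated CD24- cells and 10.2 ± 0.234 FPKM (SD, n = 3) in irradiated CD24+ cells (log2 fold change 1.09 ± 0.18 (SE), adjusted p = 4.60e-04). Slc25a42, the coenzyme A carrier, averaged 3.56 ± 0.619 FPKM (SD, n = 3) in irradiated CD24- cells and 3.99 ± 0.945 FPKM (SD, n = 3) in irradiated CD24+ cells (adjusted p = 0.607, limma). Within libraries Slc25a51 was 5.04, 6.81 and 7.89 times as abundant as Slc25a42 in irradiated CD24- cells, 2.996, 2.02 and 2.91 times in irradiated CD24+ cells and 1.94 and 2.74 times in non-irradiated CD24+ cells, with no overlap between the gates. Slc25a36, another pyrimidine nucleotide carrier, and Slc25a17, the peroxisomal cofactor carrier, were called higher on deposited FPKM at log2 changes of 0.95 and 0.69, and Slc25a16, a putative coenzyme A carrier, was not called (0.41). None of the 3 was called after median-of-ratios scaling, and outside the Paneth products Slc25a17 (-0.48) and Slc25a16 (-0.68) were called lower and Slc25a36 (-0.18) was not called. The Slc25a17 call on deposited FPKM ended without irradiated CD24+ replicate 1 (0.63) or replicate 2 (0.67).

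The iron and glutathione carriers rose together on deposited FPKM, 4 of 4 tested (48.6% of all genes), and 0 of the 4 did so outside the Paneth products. Slc25a39, needed for mitochondrial glutathione, had 124, 132 and 134 FPKM in irradiated CD24- libraries, 45.8, 59.8 and 59.5 FPKM in irradiated CD24+ libraries and 29.5 and 52.4 FPKM in non-irradiated libraries (log2 fold change 1.24 ± 0.25 (SE), adjusted p = 0.00166). Slc25a37, mitoferrin 1, had 13.5, 9.697 and 7.71 FPKM in irradiated CD24- libraries, 4.79, 4.85 and 4.11 FPKM in irradiated CD24+ libraries and 2.84 and 4.83 FPKM in non-irradiated libraries (log2 fold change 0.99 ± 0.23 (SE), adjusted p = 0.00367). Slc25a28, mitoferrin 2, had 21.1, 18.1 and 21.2 FPKM in irradiated CD24- libraries, 9.17, 10.6 and 8.54 FPKM in irradiated CD24+ libraries and 5.04 and 11.05 FPKM in non-irradiated libraries (log2 fold change 1.02 ± 0.25 (SE), adjusted p = 0.00453). For these carriers irradiated CD24- libraries lay above irradiated CD24+ libraries in FPKM with no overlap, as for 59.1% of all genes. The mitoferrin ratio, Slc25a28 over Slc25a37, overlapped at 1.57 to 2.75 in irradiated CD24- libraries and 1.91 to 2.19 in irradiated CD24+ libraries. Slc25a40, the relative of Slc25a39, averaged 2.21 ± 0.531 FPKM (SD, n = 3) in irradiated CD24- cells and 1.25 ± 0.166 FPKM (SD, n = 3) in irradiated CD24+ cells (log2 fold change 0.50 ± 0.17 (SE), adjusted p = 0.0281). Its call ended when any 1 of the 6 irradiated libraries other than irradiated CD24- replicate 2 was left out (0.39 to 0.56), and under both other scalings.

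Among members without an assigned substrate, Slc25a34 and its relative Slc25a35 parted. Slc25a34 had 5.75, 6.304 and 10.9 FPKM in irradiated CD24- libraries, 0.573, 0.507 and 0.569 FPKM in irradiated CD24+ libraries and 0.529 and 1.43 FPKM in non-irradiated libraries. The irradiated CD24- libraries were above all others, with a ratio of means of 13.9 to irradiated CD24+ cells (log2 fold change 2.43 ± 0.24 (SE), adjusted p = 1.59e-05). The log2 value understates the change of so low a gene, because 1 FPKM was added before the logarithm. Slc25a34 passed the filter only through the irradiated CD24- libraries, where it is high, so the filter favoured this result. Slc25a35 averaged 10.9 ± 2.99 FPKM (SD, n = 3) in irradiated CD24- cells and 12.6 ± 2.25 FPKM (SD, n = 3) in irradiated CD24+ cells, and it was not called on deposited FPKM (adjusted p = 0.467, limma).

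Slc25a46, an outer membrane protein of mitochondrial dynamics, had 13.7, 12.5 and 14.9 FPKM in irradiated CD24- libraries, 6.51, 5.902 and 6.76 FPKM in irradiated CD24+ libraries and 4.56 and 6.22 FPKM in non-irradiated libraries (log2 fold change 0.99 ± 0.18 (SE), adjusted p = 7.47e-04). Its rise was called after median-of-ratios scaling (0.40 in log2) and not outside the Paneth products (-0.11). Of the uncoupling protein relatives, Slc25a14 was called higher (log2 fold change 0.60 ± 0.16 (SE), adjusted p = 0.00735) at a mean of 2.57 ± 0.263 FPKM (SD, n = 3) in irradiated CD24- cells and 1.36 ± 0.194 FPKM (SD, n = 3) in irradiated CD24+ cells. Slc25a30 was not called (adjusted p = 0.0747, limma), at 2.18 ± 0.281 FPKM (SD, n = 3) in irradiated CD24- cells and 1.45 ± 0.1302 FPKM (SD, n = 3) in irradiated CD24+ cells. Outside the Paneth products Slc25a30 was called lower (-0.40 in log2) and Slc25a14 was not called (-0.20). The library kit does not keep strand, and 12 of the 47 members have an exon that overlaps a gene on the other strand in the GENCODE annotation on GRCm38. Among members called under all 3 scalings these are Slc25a10 (Gm11788), Slc25a11 (Rnf167) and Slc25a23 (Gm17168), whose reads cannot be told apart from those of the partner.

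Genes that work beside the carriers were read in the same fit, as deposited and after median-of-ratios scaling. They are not given outside the Paneth products, where 55.5% of all genes were called lower, so how the lists stand there is not shown. Log2 changes of single genes in these lists are on deposited FPKM. The lists are set against 48.6% of all genes higher and 7.27% lower as deposited, and 29.5% and 28.3% after scaling. Of 10 tested genes of carnitine handling and fatty acid oxidation, 10 rose and 0 fell, also after scaling, among them Crot and Crat, which transfer acyl groups to carnitine (2.67 and 2.54 in log2). Of 6 genes of the malate-aspartate and glycerol phosphate shuttles, 5 rose under both, led by Mdh2, the mitochondrial malate dehydrogenase (2.86), and Gpd1, the cytosolic glycerol phosphate dehydrogenase (2.70). Of 19 citric acid cycle genes, 17 rose and 0 fell, with 16 and 2 after scaling, and Cs, citrate synthase, changed by 2.27, and Ogdh, of the oxoglutarate dehydrogenase complex, by 2.23. All 5 tested genes of mitochondrial calcium uptake rose under both, including the uniporter Mcu (1.93 in log2).

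The ornithine and citrulline list, which Slc25a15 serves, had 8 of 12 genes higher and 0 lower, against 48.6% and 7.27% of all genes, and 5 and 1 after scaling. Arg2, mitochondrial arginase, changed by 3.88, and Nags, which makes the activator of carbamoyl phosphate synthesis, by 2.40 in log2. The list of mitochondrial one-carbon genes, which Slc25a32 serves, was the one with more genes lower: 1 of 9 was higher and 4 were lower, with 1 and 7 after scaling. Mthfd2, the mitochondrial folate dehydrogenase, changed by -1.57, and Aldh1l2, the mitochondrial formyltetrahydrofolate dehydrogenase, by -1.43 in log2.

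Of 12 iron and heme genes, 10 rose and 0 fell, with 4 and 1 after scaling, led by Alas1, the first enzyme of heme synthesis (2.06), and Glrx5, of iron-sulfur assembly (1.34). On the import route that inserts carriers into the inner membrane, 7 of 12 rose and 0 fell (48.6% and 7.27% of all genes), with 5 and 0 after scaling (29.5% and 28.3% of all genes), including Timm8b (1.58) and Timm22 (1.17), whose product is the insertion pore. All 9 genes of pyruvate entry and outer membrane channels rose, 8 after scaling, among them Vdac2 (2.08) and the pyruvate carrier subunit Mpc1 (1.97). Among 10 regulators of mitochondrial genes, 6 rose and 1 fell (48.6% and 7.27% of all genes), with 5 and 2 after scaling, and Esrra, the receptor ERR alpha (2.47), and Ppara, the fatty acid receptor (2.04), rose most. Of carriers listed under other symbols, 3 of 3 tested rose, 2 after scaling: Mtch2 by 2.11 and the uncoupling protein Ucp2 by 1.75 in log2 held under both. Ucp1 and Ucp3 are listed at 0 in every library.

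Markers of several cell types also differed between the gates. The summed FPKM of 15 enterocyte markers was 19750, 26446 and 42336 in irradiated CD24- libraries, 1124, 998 and 1568 in irradiated CD24+ libraries and 613 and 2867 in non-irradiated CD24+ libraries, with none of the 15 at 0 in any library. Goblet markers summed to 8821, 8420 and 4873 FPKM in irradiated CD24- libraries, 2552, 3225 and 3076 FPKM in irradiated CD24+ libraries and 1889 and 2629 FPKM in non-irradiated CD24+ libraries. The goblet markers were split, and the sum does not show it. Of 7 tested, 3 were called higher and 1 lower between the irradiated gates as deposited, and 2 and 3 after median-of-ratios scaling. All 6 stem markers fell in irradiated CD24- cells on deposited FPKM, and 7 of 8 tested tuft markers did. Of 3 tested leukocyte markers 1 was called higher and 1 lower, and the 1 tested stroma marker was not called. Among all genes 48.6% were called higher and 7.27% lower as deposited, and 29.5% and 28.3% after median-of-ratios scaling. How much of any carrier's difference goes with cell type makeup was not tested.

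Between the CD24+ groups, irradiated against not, no member passed the test. On simulated data the fit recovered 25% of 2-fold changes in this comparison. That simulation changed 200 genes and drew noise for each gene apart, without a shift that genes of a library share. The rate is therefore no measure of power for the real libraries, and the lack of calls does not show a lack of change. This comparison shares the irradiated CD24+ libraries with that of the gates. By limma 0 of 37 were called higher and 0 lower, and in the background 0% of all genes tested were called higher and 0% lower. At an unadjusted p under 0.05 there was 1 member, Slc25a30, and 1424 of all genes. Log2 changes ran from -0.32 at Slc25a34 to 1.11 at Slc25a4 (adjusted p = 0.348), and the smallest adjusted p of a member was 0.348. The median member stood at 0.24 and the median of all genes at 0.32. After median-of-ratios scaling these medians were -0.15 and -0.03, and 10 of the 37 members lay above 0, against 33 as deposited.

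The non-irradiated libraries differed from each other, and they bound what this comparison can show. Replicate 2 was above replicate 1 for 35 of the 37 members and for 95% of all genes tested, by a median of 1.63 times in members and in all genes alike, most among members at Slc25a45 (4.12 times) and Slc25a4 (3.13 times). Slc25a45, for example, averaged 5.18 ± 1.29 FPKM (SD, n = 3) in irradiated CD24+ cells and 7.18 ± 6.19 FPKM (SD, n = 2) where mice were not irradiated. Without non-irradiated replicate 2, with 1 library left in that group and assumed to vary as the others do, 15 members were called higher in irradiated CD24+ cells, when 46.4% of all genes were. Without replicate 1, 0 members were called. Replicate 1 had 92.3% of its FPKM in the Paneth products, above the other CD24+ libraries, and the enterocyte marker sum was 613 FPKM in replicate 1 and 2867 FPKM in replicate 2. The part of these differences in the result was not tested.

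Irradiated CD24- cells set against non-irradiated CD24+ cells differ in gate and in irradiation at once. This comparison shares its irradiated CD24- libraries with the comparison of gates, so it is no independent repeat of it. Here 29 of 37 members were called higher and 1 lower on deposited FPKM (limma), against 65.7% and 4.99% of all genes. The counts were 13 and 7 after median-of-ratios scaling, against 27.2% and 25.3% of all genes, and 10 and 12 outside the Paneth products, against 14.1% and 52.1%. Under all 3 scalings, 10 members were higher and 1 lower, against 14.1% and 4.98% of all genes. The 10 higher members were the same 10 genes as between the irradiated gates, and the lower one was Slc25a23 (log2 fold change -0.88 ± 0.18 (SE), adjusted p = 0.00121). Slc25a45 changed by 4.01 in log2, Slc25a20 by 3.20, Slc25a24 by 2.83 and Slc25a5 by 2.74. Slc25a47 was not called here on deposited FPKM (adjusted p = 0.0871, limma).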

How the data were processed

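Libraries were made from total RNA of sorted cells with the Illumina TruSeq RNA Library Prep kit v2, per the labels' protocols, a kit that does not keep strand. The authors deposited 1 table of FPKM values per gene and library, made with TopHat2 2.1.0 and StringTie 1.3.4 on mm9, per the submitters' processing notes, with annotation and filters not given in the sources used here. The table holds 24015 entries, and 2 duplicated symbols were summed. FPKM carries no counts: steps between low values, read with lengths from another annotation, put depth at roughly 34200000 to 45100000 fragments per library.

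Genes with at least 1 FPKM in at least 2 of 8 libraries (11190) were fitted as log2(FPKM + 1) with limma 3.58.1 in R 4.3.3 (trended empirical Bayes, all 3 groups in 1 fit, Benjamini-Hochberg over all genes tested, threshold 0.05). Fold changes on this scale understate the change of low genes. The fit was tested on simulated data. It recovered 40% of 2-fold and 80% of 4-fold changes between the irradiated gates. In each of the other comparisons it recovered 25% and 89%. False calls numbered 6 to 11 per comparison, among 122 to 126 calls. Only 200 genes were changed there, with noise drawn for each gene apart. In the real data many more genes differed between the gates, and libraries shifted as a whole. These rates therefore do not give the power of the real comparisons. Alternatives were a pseudocount of 0.1, no filter or a filter at 5 FPKM, both other scalings, only the compared groups, a replicate block and leaving out each library. The list of 41 Paneth products was chosen after their values were seen, and the members, gene lists and tests were chosen with earlier results of these data known. Values in every library are given for the main carriers of each role and for up to 6 called members with the widest change in each direction; from each pathway list, up to 2 called genes with the largest change are named, except that 1 member and 1 listed gene are not reported here. Same-numbered libraries of the irradiated gates deviated together (correlations of residuals 0.366, 0.231 and 0.402 for numbers 1, 2 and 3). The labels give no source for such pairs. The main fit, which gave the p-values reported here, was unpaired, and only the replicate block took equal numbers as pairs. That block also joined non-irradiated to irradiated CD24+ libraries, where the correlations were 0.232 and -0.0499 for numbers 1 and 2. Figures were drawn with matplotlib.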

Additional observations from a re-analysis of the deposited data

How the results depend on the processing

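Between the irradiated gates, the members called higher ranged from 22 to 28 and those called lower stayed at 2 when each library was left out in turn. Scaling moved the counts most: the lower count was 6 after median-of-ratios scaling, and 10 higher and 14 lower were called outside the Paneth products, where the median member was at -0.14. A filter at 5 FPKM gave 0 lower members, also under all 3 scalings, since both are below it. Against non-irradiated CD24+ cells, irradiated CD24- cells had 13 higher and 7 lower members after median-of-ratios scaling, 10 and 12 outside the Paneth products with a median of -0.24, 2 lower without a filter and 0 lower at 5 FPKM, also under all 3 scalings. Between the CD24+ groups the higher count ranged from 0 to 15 when libraries were left out, and the median member was -0.15 under either rescaling (-0.153 by median of ratios, -0.152 outside the Paneth products).

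Among the members reported, signs turned between the irradiated gates after median-of-ratios scaling for Slc25a4 (-0.0796), Slc25a16 (-0.16), Slc25a30 (-0.0355), Slc25a32 (-0.41) and Slc25a33 (-0.34). Outside the Paneth products they turned for Slc25a4 (-0.61), Slc25a26 (-0.44), Slc25a32 (-0.89), Slc25a33 (-0.79), Slc25a12 (-0.41), Slc25a13 (-0.10), Slc25a38 (-0.14), Slc25a28 (-0.12), Slc25a37 (-0.0784), Slc25a46 (-0.11), Slc25a14 (-0.20), Slc25a16 (-0.68), Slc25a17 (-0.48), Slc25a25 (-0.48), Slc25a30 (-0.40), Slc25a36 (-0.18), Slc25a40 (-0.25) and Slc25a51 (-0.0604). Without irradiated CD24- replicate 3 they turned for Slc25a4 (-0.10) and Slc25a33 (-0.0255), and without irradiated CD24+ replicate 2 for Slc25a42 (0.0298). Between the CD24+ groups, Slc25a5 was at -0.15 without non-irradiated replicate 1, and Slc25a45 at 0.68 and Slc25a34 at 0.0192 without replicate 2. Over all libraries left out, these values ranged from -0.10 to 0.97 for Slc25a4, -0.0255 to 0.26 for Slc25a33 and -0.23 to 0.0298 for Slc25a42 between the irradiated gates, and between the CD24+ groups from -0.15 to 1.18 for Slc25a5, -1.04 to 0.68 for Slc25a45 and -0.65 to 0.0192 for Slc25a34. The cause was not tested. The fit with the replicate block gave 26 higher and 2 lower members between the irradiated gates, 0 and 0 between the CD24+ groups and 29 and 1 for irradiated CD24- over non-irradiated CD24+ cells, and it changed no call among the named members.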
